A study of Homo sapiens with 11 samples.

Results

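The miR-26 family and miR-101 are small regulatory RNAs that share a well-known target, the mRNA of EZH2. EZH2 is the methyltransferase of Polycomb repressive complex 2, which places the repressive trimethyl mark on histone H3 lysine 27. The members described here were taken by name and comprised hsa-miR-26a-5p, hsa-miR-26b-5p, hsa-miR-26b-3p, hsa-miR-101-3p and hsa-miR-101-5p, that is 5 of the 2588 mature miRNAs of the deposited tables. They occupied 7 of 2813 rows, because hsa-miR-26a-5p and hsa-miR-101-3p are each encoded at 2 genomic loci.

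The data were miRNA levels from 11 small RNA-seq libraries of 6 tumour-derived human cell lines. A549 (lung cancer), ES2 (ovarian cancer), MV3 (melanoma), BE(2)C (neuroblastoma) and HepG2 (liver cancer) had 2 biological replicates each, and PANC1 (pancreatic cancer) had 1. All groups were parental lines without a genetic change or siRNA, and the groups differed in line only, apart from the technical steps named next. Libraries of A549, ES2, MV3 and PANC1 were built with a NEXTflex small RNA kit (50 ng RNA input), whereas Novogene built those of BE(2)C and HepG2, with another sequencer and read length. Preparation and line therefore cannot be told apart in any comparison between these sets. BE(2)C cells were cultured in another medium and, per the protocol text, were collected 24 h after seeding, although their sample label gives the 48 h of the other lines. Each group is a cultured line and stands for no other tumour of its tissue.

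The number of miRNA reads in a library ranged from 1173902 to 12137452. Levels are given as CPM, the reads of a miRNA for every 1000000 miRNA reads of its library. Where no read was found, up to 3 reads remain possible, equal to 2.56 CPM at the lowest and 0.247 CPM at the highest depth. Markers of the line of origin were present in part. The 3 liver miRNAs summed to 15835 to 16456 CPM in HepG2, but miR-122-5p, the defining hepatocyte miRNA, contributed only 57.0 CPM on average and reached 415 CPM in BE(2)C. A549 held 4486 to 4762 CPM of the liver list, nearly all from miR-192-5p and miR-194-5p. The 3 neuronal miRNAs summed to 84656 to 105820 CPM in BE(2)C, of which miR-218-5p gave 78501 CPM on average and the neuron-specific miR-124-3p only 22.9 CPM. Melanocytic miR-211-5p had no read in MV3 or any other library. The epithelial miRNAs miR-200c-3p, miR-141-3p and miR-375 summed to only 71.2 to 108 CPM in A549 and to 62.2 CPM in PANC1, whereas they reached 4893 to 6398 CPM in BE(2)C, mainly through miR-375. Of the blood markers, miR-142-3p reached 306 CPM in ES2 and miR-451a 173 CPM in BE(2)C. In HepG2, miR-148a-3p took 725599 to 752841 CPM, so that all other miRNAs of this line shared the remainder of the reads. In the NEXTflex lines and in BE(2)C it lay between 6.61 and 4230 CPM. In A549, miR-21-5p took 641725 to 650347 CPM, against 270352 to 282176 CPM in ES2, 321096 to 331546 CPM in MV3 and 335307 CPM in PANC1. For this reason levels were also given with TMM factors (trimmed mean of M-values, set by the bulk of the miRNAs), which were 0.166 and 0.217 in HepG2 and 1.02 to 1.87 in the other libraries. A further scale, chosen after the data were seen, left the reads of miR-21-5p and miR-148a-3p out of every library total.

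A miRNA hairpin yields a 5p and a 3p arm. The arm that is retained in Argonaute acts as the guide strand, and the other arm, the passenger strand, is mostly degraded. The guide recognises its mRNA targets mainly by its seed, bases 2 to 8 from the 5′ end. The miR-26 genes lie in introns of the CTDSP family of small phosphatase genes and are transcribed with them. The miR-26 guides and the miR-101 guide are widely described as tumour suppressors. The sequences of the 5 members are shown because the guides of the miR-26 family are nearly identical while that of miR-101 is not. They were taken from RefSeq (GRCh38.p14), which held all 5, and capitals mark the seed.
hsa-miR-26a-5p: uUCAAGUAauccaggauaggcu
hsa-miR-26b-5p: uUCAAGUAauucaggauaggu
hsa-miR-26b-3p: cCUGUUCUccauuacuuggcu
hsa-miR-101-3p: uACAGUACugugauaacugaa
hsa-miR-101-5p: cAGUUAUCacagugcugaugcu

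The guides hsa-miR-26a-5p (22 bases) and hsa-miR-26b-5p (21 bases) shared the seed UCAAGUA and 19 of the 21 bases compared. Counted from the 5′ end, with the base of hsa-miR-26a-5p given first, they differed by C11U and C21U. How the authors' counting treated a read with a mismatch is not given in the sources used here, and an exchange of reads between these guides was not tested. The guide hsa-miR-101-3p had the seed ACAGUAC and shared only 6 of 21 positions with hsa-miR-26a-5p. Seeds were searched among the miRNAs with a sequence in the reference, which did not hold every miRNA of the tables (miR-124-3p was absent). Among these, no other had the seed of hsa-miR-101-3p, hsa-miR-101-5p or hsa-miR-26b-3p. Another 2 carried the miR-26 seed and are shown to let the seed be compared.
hsa-miR-1297: uUCAAGUAauucaggug
hsa-miR-4465: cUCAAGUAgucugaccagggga
Both had 0 reads in all 11 libraries. Among the miRNAs searched, every read assigned to one with this seed thus belonged to hsa-miR-26a-5p or hsa-miR-26b-5p.

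All loci were intronic in GRCh38 (GENCODE 44), on the strand of their host gene. MIR26A1 lies at chr3:37969404-37969480 on the plus strand, in an intron of CTDSPL. MIR26A2 lies at chr12:57824609-57824692 on the minus strand, in an intron of CTDSP2. MIR26B lies at chr2:218402646-218402722 on the plus strand, in an intron of CTDSP1. MIR101-1 lies at chr1:65058434-65058508 on the minus strand, in an intron of the kinase gene JAK1. MIR101-2 lies at chr9:4850297-4850375 on the plus strand, in an intron of RCL1, and an exon of an antisense long non-coding RNA (ENSG00000228165) covers it. Reads of hsa-miR-26a-5p were split nearly evenly between its rows, with 48.9% to 51.1% on chromosome 3 in each library. For hsa-miR-101-3p, 47.5% to 51.0% were on chromosome 1. The guide reads thus cannot be placed at a locus, and the rows were summed.

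hsa-miR-26a-5p was the most abundant member in every library. It made up 63.7% to 79.2% of the summed reads of the 5 members. The sum ranged from 0.401% of all miRNA reads in HepG2 replicate 1 to 3.01% in BE(2)C replicate 2. The guide hsa-miR-26a-5p reached 4193 and 4146 CPM in A549, 12874 and 13271 CPM in ES2, 12028 and 12830 CPM in MV3 and 12383 CPM in PANC1. It reached 11334 and 22708.5 CPM in BE(2)C and 2746 and 2992 CPM in HepG2. Hence ES2, MV3 and PANC1 lay close together, A549 was low, and the BE(2)C replicates differed 2.00-fold from each other. For comparison, replicates of the other lines differed by 1.01-fold to 1.09-fold. The BE(2)C libraries also differed in the sums of the liver markers (842 to 2271 CPM) and the blood markers (46.5 to 301 CPM), and the part of this in the difference was not tested.

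The paralog hsa-miR-26b-5p was lower than hsa-miR-26a-5p in every library. Its levels were 866 and 1073 CPM in A549, 2169.9 and 2084 CPM in ES2, 4532 and 5352 CPM in MV3 and 5795 CPM in PANC1. In BE(2)C it had 730.5 and 2133 CPM, and in HepG2 it had 449 and 546 CPM. On CPM, the 4 NEXTflex lines formed a series without overlap from A549 over ES2 and MV3 to PANC1. With miR-21-5p and miR-148a-3p left out of the totals, A549 and ES2 did not differ (log2 difference -0.11, limma adjusted p = 0.891). The BE(2)C replicates differed 2.92-fold, so that this line spanned the range from below A549 to the level of ES2.

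The miR-101 guide hsa-miR-101-3p was measured at 784 and 653 CPM in A549, 1445 and 1406 CPM in ES2, 1869 and 1641 CPM in MV3 and 516 CPM in PANC1. It had 5719 and 5281 CPM in BE(2)C and 810.1 and 887 CPM in HepG2. BE(2)C stood above every other line on this scale, and PANC1 stood below. In contrast to the miR-26 guides, the BE(2)C replicates of hsa-miR-101-3p differed only 1.08-fold.

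**Figure D1:**
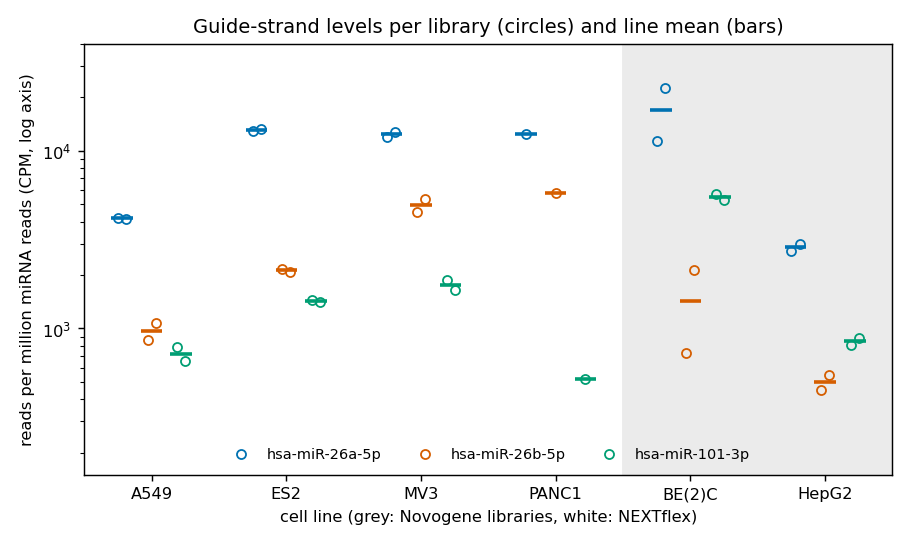
Levels of the 3 guide strands in CPM on a log axis, by cell line, with circles for libraries and bars for line means. hsa-miR-26a-5p lies highest in each line, hsa-miR-26b-5p rises from A549 to PANC1 among the NEXTflex lines, and hsa-miR-101-3p is highest in BE(2)C with 5719 and 5281 CPM.

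The passenger arms were rare. For hsa-miR-26b-3p, 1 to 34 reads were counted per library, and its level was highest in MV3 with 17.9 and 12.9 CPM. In the other lines it lay between 0.0824 CPM in HepG2 replicate 2 and 6.01 CPM in ES2 replicate 1. It passed the filter on low values only through MV3, so a difference of that line was favoured by the filter. It is therefore described by its levels and enters no count of differing members in this part. Only the counts in the closing section on processing include it. hsa-miR-101-5p had 1 read in MV3 replicate 2, 1 and 3 reads in BE(2)C and 0 reads in the other 8 libraries. It was not tested.

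All 3 guides differed across the 6 lines (limma F test, adjusted p = 0.000245 for hsa-miR-26a-5p, 0.000823 for hsa-miR-26b-5p and 2.59e-06 for hsa-miR-101-3p). However, 99.3% of the 546 miRNAs tested passed as well, so this count does not set the guides apart. Across the 4 NEXTflex lines, which share the preparation, all 3 guides passed again, beside 85.4% of 453 miRNAs. Here the limma adjusted p was 4.32e-05 for hsa-miR-26a-5p, 0.000256 for hsa-miR-26b-5p and 0.000621 for hsa-miR-101-3p.

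Within the NEXTflex set, A549 had less hsa-miR-26a-5p than ES2 and MV3 on the CPM scale. The mean level was 4169 ± 33.6 CPM (SD, n = 2) in A549, 13073 ± 281 CPM in ES2 and 12429 ± 567 CPM in MV3. On the log2(CPM + 1) scale, A549 minus ES2 was -1.65 ± 0.29 (SE; limma, adjusted p = 0.00197) and A549 minus MV3 was -1.57 ± 0.29 (limma, adjusted p = 0.00253). With TMM factors these differences were -1.33 and -0.77, with limma adjusted p of 0.00372 and 0.0434. The smaller one was not called by edgeR (adjusted p = 0.0616) or DESeq2 (adjusted p = 0.0565). With miR-21-5p and miR-148a-3p left out of the totals, the differences were -0.62 and -0.65, and neither was called (limma, adjusted p = 0.117 and 0.105). Between ES2 and MV3 the difference of hsa-miR-26a-5p was 0.07, with a 95% interval from -0.60 to 0.75, and did not pass.

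MV3 had more hsa-miR-26b-5p than A549. The means were 969 ± 147 CPM in A549, 2127 ± 61.0 CPM in ES2 and 4942 ± 580 CPM in MV3 (SD, n = 2). A549 minus MV3 was -2.35 ± 0.44 (limma, adjusted p = 0.00269). With TMM factors the value was -1.55 and still passed (limma, adjusted p = 0.0117), as it did with edgeR (adjusted p = 0.00573), with DESeq2 (adjusted p = 0.00246) and without miR-21-5p and miR-148a-3p in the totals (-1.42, limma adjusted p = 0.0308). The steps from A549 to ES2 (-1.14 ± 0.44, limma adjusted p = 0.0625) and from ES2 to MV3 (-1.21 ± 0.44, limma adjusted p = 0.0692) did not pass, although their replicates did not overlap on CPM. The spread of the BE(2)C replicates entered the common error of this miRNA. Without BE(2)C replicate 1 the adjusted p of these steps was 0.00179 and 0.00256, and without BE(2)C replicate 2 it was 0.00155 and 0.00222. With the replicate number as a block, they were 0.0408 and 0.0480. These values are on CPM, and the steps did not pass on the other scales named above. With TMM factors they were -0.83 and -0.73 (limma, adjusted p = 0.117 and 0.224). Without miR-21-5p and miR-148a-3p in the totals they were -0.11 and -1.31 (limma, adjusted p = 0.891 and 0.0574).

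hsa-miR-101-3p was lower in A549 than in ES2 and MV3 on the CPM scale. The means were 718 ± 92.5 CPM in A549, 1426 ± 28.1 CPM in ES2 and 1755 ± 161 CPM in MV3 (SD, n = 2). A549 minus ES2 was -0.99 ± 0.15 (limma, adjusted p = 0.000903), and A549 minus MV3 was -1.29 ± 0.15 (limma, adjusted p = 0.000256). With TMM factors the former was -0.68 (adjusted p = 0.0223) and the latter -0.49 (adjusted p = 0.0750), which ended the call against MV3. DESeq2 ended the call against ES2 (adjusted p = 0.249). Both calls ended with miR-21-5p and miR-148a-3p left out of the totals, where the differences were 0.037 against ES2 and -0.36 against MV3 (limma, adjusted p = 0.894 and 0.0856). ES2 and MV3 differed by -0.30 with an interval from -0.65 to 0.05 and did not pass. PANC1, with its 1 library, entered no pair. Its 516 CPM were below both replicates of each other NEXTflex line.

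The passenger strand hsa-miR-26b-3p had 2 and 6 reads in A549 against 21 and 20 in MV3. Of the 3 guides, 2 differed between A549 and ES2 in limma (50.5% of all miRNAs tested) and 3 between A549 and MV3 (57.3%). Between ES2 and MV3, 0 differed in limma (32.8%), where 1 had an unadjusted p under 0.05. For this last pair edgeR and DESeq2 also called 0 guides, and 125 and 154 of all 546 miRNAs. With miR-21-5p and miR-148a-3p left out of the totals, 0, 1 and 0 guides differed in these 3 pairs. On that scale 261, 253 and 166 of all 546 miRNAs were called, and the median over all miRNAs was 0.62, 0.08 and -0.47. Over all miRNAs, the median difference was -0.17, -0.47 and -0.36 for these pairs on CPM and 0 with TMM factors. Calls over all miRNAs were 109 higher in A549 and 204 higher in MV3 on CPM, against 147 and 115 with TMM factors. For ES2 and MV3 they were 49 and 130 against 70 and 78. For A549 and ES2 they were 129 and 147, and 154 and 76 with DESeq2. On the totals without miR-21-5p and miR-148a-3p, 198 were higher in A549 and 63 in ES2, and 156 were higher in A549 and 97 in MV3.

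Between the Novogene lines, the direction depended on how the libraries were scaled. On CPM, BE(2)C exceeded HepG2 in all 3 guides (83.0% of all miRNAs were called). The differences were 2.48 ± 0.29 for hsa-miR-26a-5p (limma, adjusted p = 8.08e-05), 1.33 ± 0.44 for hsa-miR-26b-5p (adjusted p = 0.0215) and 2.70 ± 0.15 for hsa-miR-101-3p (adjusted p = 1.07e-06). The median over all miRNAs was 2.79, with 408 higher in BE(2)C and 45 higher in HepG2, so the 3 guides lay below the median shift. The value of hsa-miR-26b-5p was 2.10 without BE(2)C replicate 1 and 0.56 without BE(2)C replicate 2, and its call ended without HepG2 replicate 1 (adjusted p = 0.0990) or HepG2 replicate 2 (adjusted p = 0.0512). With TMM factors the median was 0.49, with 226 and 125 calls, and the guides stood at -0.53 (adjusted p = 0.117), -1.67 (adjusted p = 0.00519) and -0.31 (adjusted p = 0.201). Only hsa-miR-26b-5p was called on that scale, and it was higher in HepG2. On the totals without miR-21-5p and miR-148a-3p, 188 miRNAs were higher in BE(2)C and 151 in HepG2. All 3 guides were called and higher in HepG2, at -1.09, -2.24 and -0.88 (limma, adjusted p = 0.0113, 0.00248 and 0.00122). For hsa-miR-26b-3p, on 1 to 34 reads per library, BE(2)C minus HepG2 was positive on each scale run.

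**Figure D2:**
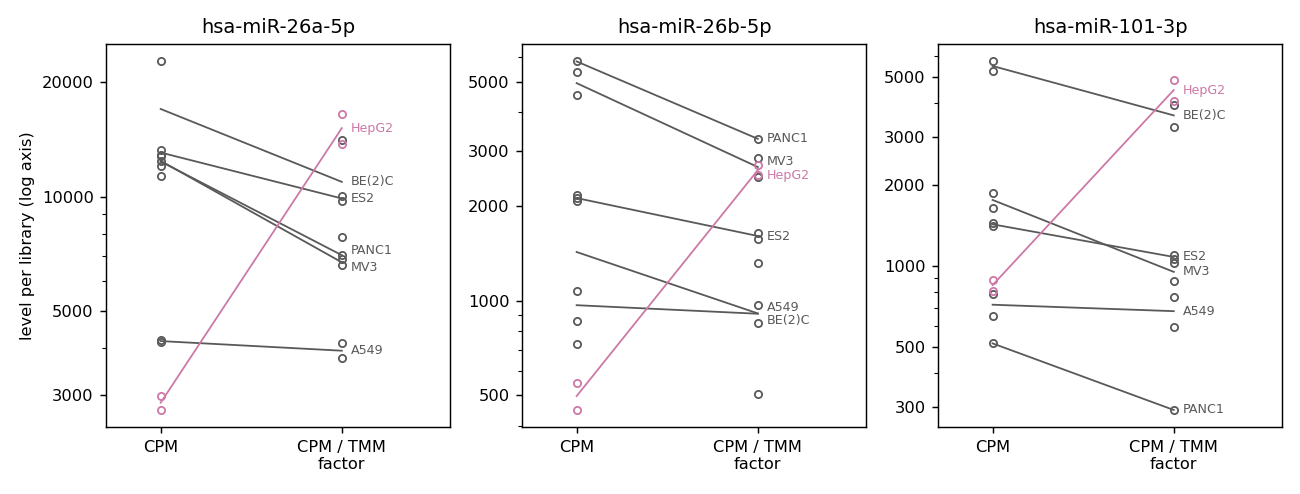
Levels of the 3 guides per library (circles) on CPM and after division by TMM factors, on a log axis, with lines joining the means of each line and HepG2 in pink. HepG2 moves from 2869 to 15155 for hsa-miR-26a-5p and from 849 to 4481 for hsa-miR-101-3p, the highest means on the TMM scale, whereas A549 stays low for hsa-miR-26a-5p and PANC1 stays lowest for hsa-miR-101-3p.

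Ranks within a library do not depend on scaling. In HepG2, hsa-miR-26a-5p was the 7th most abundant miRNA in both replicates, hsa-miR-101-3p the 23rd in both, and hsa-miR-26b-5p ranked 33 and 31. In the other lines hsa-miR-26a-5p ranked between 9 and 24, and hsa-miR-101-3p between 32 and 94. HepG2 thus held the top rank of both guides, while its CPM was the lowest for hsa-miR-26a-5p and low for hsa-miR-101-3p. For hsa-miR-26b-5p the top rank was 27 in PANC1 and the lowest 93 in BE(2)C replicate 1.

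The order of the line means changed accordingly. On CPM, hsa-miR-26a-5p followed the order BE(2)C, ES2, MV3, PANC1, A549, HepG2, with 5.93-fold between the ends. With TMM factors the order was HepG2, BE(2)C, ES2, PANC1, MV3, A549, with 3.85-fold. For hsa-miR-26b-5p, PANC1 was highest on both scales, and the range was 11.6-fold on CPM and 3.61-fold with TMM factors. For hsa-miR-101-3p, PANC1 was lowest on both scales, and the range was 10.7-fold and 15.3-fold. Neighbours on CPM that did not pass the test against each other were BE(2)C and ES2, ES2 and MV3, and A549 and HepG2 for hsa-miR-26a-5p. For hsa-miR-101-3p they were MV3 and ES2, and HepG2 and A549. For hsa-miR-26b-5p no neighbouring pair among MV3, ES2, BE(2)C, A549 and HepG2 passed. PANC1 was not tested against its neighbours.

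The other 6 pairs crossed the preparations. Here 2 of 3 guides differed between A549 and BE(2)C (76.7% of all miRNAs), 1 of 3 between ES2 and BE(2)C (77.5%) and 2 of 3 between MV3 and BE(2)C (78.0%). In each, BE(2)C had more hsa-miR-101-3p. The differences were -2.94 for A549, -1.95 for ES2 and -1.65 for MV3 minus BE(2)C (SE 0.15, limma adjusted p = 1.58e-06, 8.08e-06 and 2.50e-05), and with TMM factors they were -2.41, -1.73 and -1.92. With miR-21-5p and miR-148a-3p left out of the totals they were -1.47, -1.50 and -1.10, and all passed. Against HepG2, 0 of 3 guides differed for A549 in limma, also 0 at an unadjusted p under 0.05 (67.6% of all miRNAs were called), 3 of 3 for ES2 (60.8%) and 3 of 3 for MV3 (69.6%). These counts with HepG2 were 3, 1 and 2 with TMM factors, where 377, 334 and 348 of all 546 miRNAs were called. The signs of hsa-miR-26a-5p and hsa-miR-101-3p turned for ES2 and MV3 on that scale. The sign of hsa-miR-101-3p for A549 did not turn, at -0.25 on CPM and -2.73 with TMM factors. Over all miRNAs, 79.8% to 83.7% of the calls against HepG2 were higher in the NEXTflex line on CPM and 49.7% to 54.9% with TMM factors. Against BE(2)C, 29.1% to 41.5% of the calls were higher in the NEXTflex line on CPM and 35.4% to 37.7% with TMM factors. After quantile normalization this share was 47.7% to 52.8%.

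Ratios of guides within a library are free of this scaling, although capture of different sequences can depend on the preparation. The ratio of hsa-miR-26a-5p to hsa-miR-26b-5p was 4.84 and 3.86 in A549, 5.93 and 6.37 in ES2, 2.65 and 2.40 in MV3 and 2.14 in PANC1. It was 15.5 and 10.6 in BE(2)C and 6.11 and 5.48 in HepG2. Within each preparation the lines did not overlap. Across the 6 lines the ratio spanned 6.01-fold (exact permutation test of the F statistic, p = 0.000289, adjusted p = 0.000722 over 5 ratios). Across the 4 NEXTflex lines it spanned 2.88-fold from ES2 to PANC1 (exact permutation test, p = 0.00952, the smallest possible, adjusted p = 0.0238). Stated as a share, hsa-miR-26b-5p gave 31.9% of the reads of both miR-26 guides in PANC1 (95% Wilson interval 31.7% to 32.1%), 28.4% ± 1.46 in MV3 (SD, n = 2), 18.8% ± 2.44 in A549, 14.7% ± 0.966 in HepG2, 14.0% ± 0.604 in ES2 and 7.32% ± 1.79 in BE(2)C.

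The balance between the miR-26 family and miR-101 varied more. The ratio of hsa-miR-26a-5p to hsa-miR-101-3p was 24.0 in PANC1, 8.91 and 9.44 in ES2, 6.44 and 7.82 in MV3, 5.35 and 6.35 in A549, 3.39 and 3.37 in HepG2 and 1.98 and 4.30 in BE(2)C. PANC1 lay far above all other libraries, and BE(2)C and HepG2 lay below the NEXTflex lines. The span of the line means was 8.21-fold over 6 lines (exact permutation test, p = 0.00164, adjusted p = 0.00273). Within NEXTflex it was 4.11-fold from A549 to PANC1 (exact permutation test, p = 0.00952, adjusted p = 0.0238).

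The order was similar for hsa-miR-26b-5p over hsa-miR-101-3p. This ratio was 11.2 in PANC1, 2.42 and 3.26 in MV3, 1.501 and 1.482 in ES2, 1.10 and 1.64 in A549, 0.555 and 0.615 in HepG2 and 0.128 and 0.404 in BE(2)C. The less abundant miR-26 paralog thus exceeded miR-101 in all NEXTflex libraries and was exceeded by it in all Novogene libraries. Preparation and line cannot be told apart in this contrast. The span was 49.4-fold over 6 lines (exact permutation test, p = 0.000289, adjusted p = 0.000722), and 27.8-fold or 87.9-fold without BE(2)C replicate 1 or 2. Within NEXTflex it was 8.33-fold (exact permutation test, p = 0.0286, adjusted p = 0.0476). A549 and ES2 overlapped in it.

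**Figure D3:**
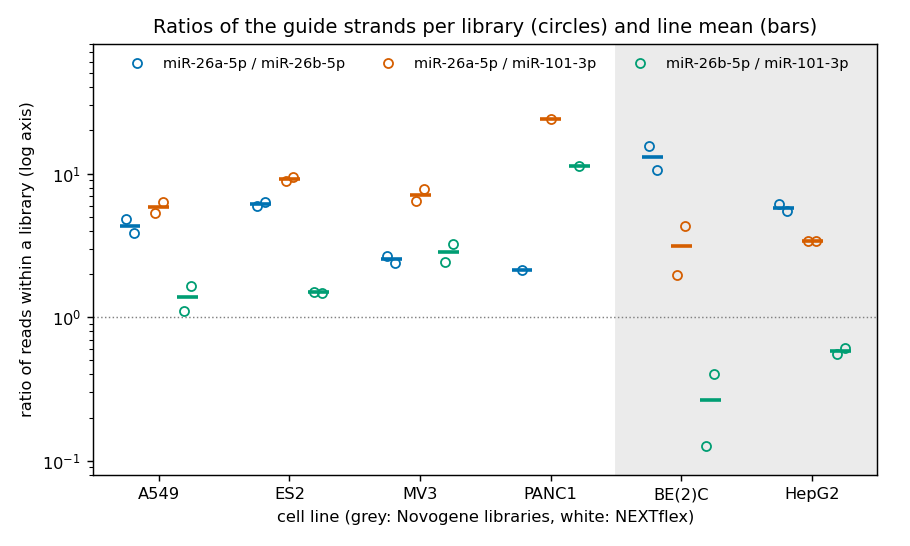
Ratios of reads between the 3 guides within each library (circles) and line means (bars) on a log axis, with a dotted line at equal reads. PANC1 has the highest ratios to hsa-miR-101-3p, 24.0 and 11.2, and the lowest ratio of hsa-miR-26a-5p to hsa-miR-26b-5p, while only the Novogene lines lie below the dotted line.

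Reads of the guide far exceeded those of the listed passenger arm for both families. At MIR26B, hsa-miR-26b-3p gave 0.0602% of the reads of both arms in PANC1 and 0.300% in MV3, the lowest and highest values of the pooled reads per line. The pooled 95% Wilson intervals were 0.0431% to 0.0840% in PANC1 and 0.221% to 0.407% in MV3, which cover counting error only. The ratio of the arms did not pass the test across lines (exact permutation test, p = 0.289, and p = 0.371 within NEXTflex). For miR-101, hsa-miR-101-5p comes from MIR101-1 only, whereas hsa-miR-101-3p sums reads that can come from either locus. The 5p arm of MIR101-2 has another sequence and was not counted here. The folds that follow are therefore no bounds on guide over passenger arm at a locus. In BE(2)C, 77556 reads of hsa-miR-101-3p faced 4 reads of hsa-miR-101-5p. In HepG2, 20396 reads faced 0, so that hsa-miR-101-3p was at least 6799-fold above hsa-miR-101-5p, with the floor of 3 reads set over the line. The same floor gave at least 1146-fold in A549, 1877-fold in ES2 and 1678-fold in PANC1. The test of this ratio across lines (exact permutation test, p = 0.0388, adjusted p = 0.0485) rested on 0.5 reads added to zeros and followed depth, and within NEXTflex it gave an adjusted p of 0.310. It was therefore not read as a difference in arm use.

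The passenger arms of miR-26a, unlike its guide, can be placed at a locus. They are shown with no capitals because only their 3′ ends and 1 inner base tell them apart.
hsa-miR-26a-1-3p: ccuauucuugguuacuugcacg
hsa-miR-26a-2-3p: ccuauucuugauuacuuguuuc
With the base of hsa-miR-26a-1-3p first and counted from the 5′ end, the differences were G11A, C19U, A20U, C21U and G22C. The arm from MIR26A2 on chromosome 12 was the more frequent in every library. hsa-miR-26a-1-3p against hsa-miR-26a-2-3p had 6 against 13 and 0 against 19 reads in A549, 0 against 43 and 7 against 79 in ES2, 6 against 52 and 7 against 100 in MV3 and 123 against 276 in PANC1. In BE(2)C the reads were 12 against 328 and 32 against 199, and in HepG2 they were 2 against 20 and 1 against 20.

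In PANC1, hsa-miR-26a-2-3p held 69.2% of these reads (95% Wilson interval 64.5% to 73.5%). The pooled share was 94.6% in ES2 (89.2% to 97.3%), 92.1% in MV3 (87.0% to 95.3%), 92.3% in BE(2)C (89.8% to 94.2%), 93.0% in HepG2 (81.4% to 97.6%) and 84.2% in A549 (69.6% to 92.6%). The interval of PANC1 thus lay below those of ES2, MV3, BE(2)C and HepG2 and overlapped that of A549. With 1 library there is no replicate check, and BE(2)C replicates differed more than their counting error. The share compares passenger arms only, and whether the loci yield guide in the same proportion was not tested. The level of hsa-miR-26a-2-3p differed between lines (limma F test, adjusted p = 7.72e-05 over 6 lines and 0.0106 over the NEXTflex lines). It was 7.04 ± 3.08 CPM in A549, 30.1 ± 6.06 CPM in ES2 and 54.4 ± 14.3 CPM in MV3 (SD, n = 2), so that A549 was the lowest NEXTflex line, as for the guide. A549 minus ES2 was -1.99 ± 0.39 (limma, adjusted p = 0.00348), and -1.68 with TMM factors (adjusted p = 0.00913), but it was not called with miR-21-5p and miR-148a-3p left out of the totals (-1.08, limma adjusted p = 0.0631).

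**Figure D4:**
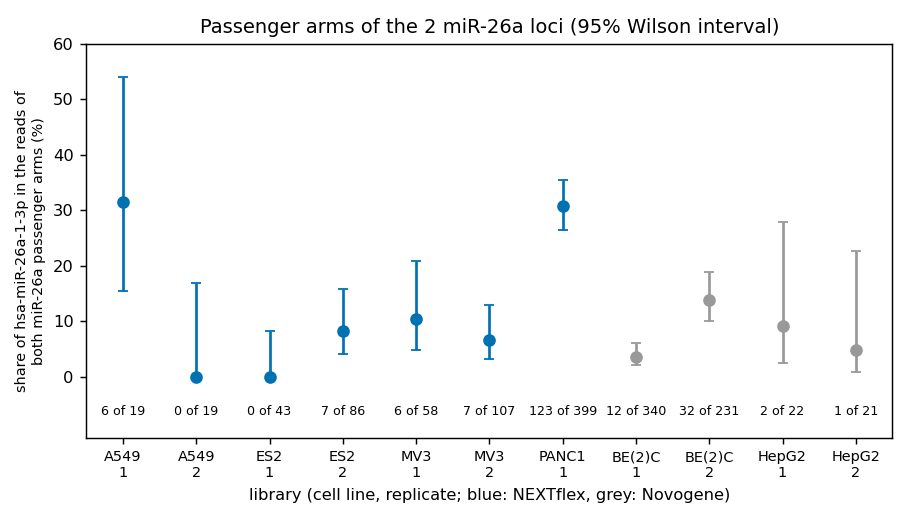
Share of hsa-miR-26a-1-3p in the reads of both miR-26a passenger arms per library in percent, with 95% Wilson intervals and the reads below each point. PANC1 holds 123 of 399 reads, whereas ES2, MV3, BE(2)C and HepG2 libraries hold at most 13.9% and A549 has only 19 reads per library.

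The line pattern of each guide was compared with those of 545 other tested miRNAs, by Pearson r of log2(CPM + 1) over 6 line means that share library scaling and preparation. The nearest to hsa-miR-26a-5p were miR-10b-5p (r = 0.97), its own passenger strand hsa-miR-26a-2-3p (r = 0.96) and miR-181b-3p (r = 0.95). For hsa-miR-26b-5p they were miR-425-3p (r = 0.98), miR-497-5p (r = 0.97) and miR-3187-3p (r = 0.96). For hsa-miR-101-3p they were miR-330-5p (r = 0.99), miR-152-5p (r = 0.99) and miR-1287-5p (r = 0.98). Only miR-1287-5p was among the nearest 3 with TMM factors too. With these factors, r to hsa-miR-26a-5p was 0.79 for miR-10b-5p, 0.25 for hsa-miR-26a-2-3p and 0.02 for miR-181b-3p. For the 3 named with hsa-miR-26b-5p it was then 0.31 to 0.87, and for those of hsa-miR-101-3p 0.85 to 0.99. Among the members, r was 0.75 between hsa-miR-26a-5p and hsa-miR-26b-5p (0.26 with TMM factors), 0.55 between hsa-miR-26a-5p and hsa-miR-101-3p (0.74) and -0.04 between hsa-miR-26b-5p and hsa-miR-101-3p (-0.27).

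Other miRNAs known to target EZH2 were miR-138-5p, miR-214-3p, miR-124-3p, miR-98-5p, miR-144-3p, let-7a-5p and let-7b-5p. Of these 7, 6 were tested and all 6 differed across the 6 lines (99.3% of all miRNAs did), and 5 of 5 tested differed within NEXTflex (85.4%). Within NEXTflex, miR-214-3p passed the filter only through MV3 (mean 39.0 CPM, at most 2.20 CPM in another NEXTflex line). Its call within NEXTflex was therefore favoured by the filter. Between A549 and ES2, 2 of 6 were higher in ES2 and 4 did not pass (50.5% of all miRNAs were called). Between A549 and MV3, 1 was higher in A549 and 2 in MV3 (57.3%), and between ES2 and MV3, 2 were higher in ES2 and 1 in MV3 (32.8%). With TMM factors, 1 was higher in ES2 than in A549 (258 of all 546 miRNAs were called). Between A549 and MV3, 3 were then higher in A549 and 1 in MV3 (262 of 546). Between ES2 and MV3, 2 were higher in ES2 and 1 in MV3 on this scale (148 of 546). Between BE(2)C and HepG2 all 6 were higher in BE(2)C on CPM (83.0% of all miRNAs were called), with a median difference of 5.87 against 2.79 over all miRNAs. Of these, miR-124-3p passed the filter only through BE(2)C (mean 22.9 CPM, at most 0.243 CPM in any other line). Its call across the 6 lines and its direction here were therefore favoured by the filter. The counts and medians for this pair include it on both scales. With TMM factors 5 of 6 were higher in BE(2)C (351 of all 546 miRNAs were called), with medians of 4.55 and 0.49. There miR-98-5p stood at -0.07 (limma, adjusted p = 0.719), and let-7a-5p at 2.59, against 5.59 on CPM. miR-144-3p, whose seed ACAGUAU resembles that of hsa-miR-101-3p, had 0 reads in every library.

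The make-up of this group differed between the lines. In HepG2, hsa-miR-26a-5p with 2746 and 2992 CPM and hsa-miR-101-3p with 810.1 and 887 CPM were above let-7a-5p with 163 and 202 CPM, miR-98-5p with 3.79 and 4.94 CPM and let-7b-5p with 7.58 and 3.87 CPM. miR-138-5p had no read there. In contrast, the growth-inhibitory let-7a-5p exceeded hsa-miR-26a-5p in all NEXTflex libraries, with 44945 and 51642 CPM in A549, 119422 and 127669 CPM in ES2, 100942 and 109876 CPM in MV3 and 116052 CPM in PANC1. In BE(2)C, let-7a-5p had 6315 and 12209 CPM and was below hsa-miR-26a-5p in both libraries. It was thus above hsa-miR-26a-5p in all NEXTflex libraries and below it in all Novogene libraries. Preparation and line cannot be told apart in this contrast. The brain miRNA miR-124-3p (17.7 and 28.1 CPM) and miR-214-3p (206 and 367 CPM) were highest in BE(2)C. In PANC1, low hsa-miR-101-3p went with 0.205 CPM of miR-138-5p and 5595 CPM of miR-98-5p, the highest level of the latter in any library.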

How the data were processed

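Small RNA-seq values of 11 libraries were used. Per the labels and the study's methods, total RNA was isolated with TRIzol and the lines had 1 or 2 biological replicates. The submitters' processing notes name cutadapt 1.14, Bowtie2 2.3.2, SAMtools 1.5, featureCounts 1.5.3 and edgeR 3.30.3 and the build hg38. The values deposited by the authors were CPM for PANC1. For the other lines, the deposited values were a signal, namely CPM over a TMM factor computed separately for each line's table. Within a tolerance of 1e-06, 100% of the values above 0 were whole multiples of 1 read, so the deposited values gave whole read counts.

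CPM was recomputed from these reads per library, and rows of a miRNA were summed. Library totals were 1173902 to 12137452 reads (median 2670030). The fit took log2(CPM + 1) of every miRNA that averaged 10 CPM or more in some line. limma 3.58.1 (R 4.3.3, eBayes with trend) was run on all 11 libraries with line as the only factor, two-sided contrasts and Benjamini-Hochberg adjustment over all tested miRNAs at 0.05. This scale understates differences of rare miRNAs. Ratios (reads + 0.5) were tested by exact permutation of the one-way F over 10395 assignments of libraries to lines, or 105 within NEXTflex, adjusted over 5 ratios. Intervals cover counting error only, since reads carry no molecular identifiers used here. Scripts were tested on simulated data. Alternatives were TMM factors, quantile normalization, the deposited scale, pseudocounts 0.5 and 5, no filter, a filter at 100 CPM, edgeR 4.0.16 and DESeq2 1.42.0 on the reads, a replicate block, each replicated library left out and, chosen after seeing the data, totals over all miRNAs but miR-21-5p and miR-148a-3p, which held over 50% of the reads of a library. For ratios, 1 read was added instead. The members and lists were chosen with earlier results of these data known. Named besides the members were the miR-26a passenger arms, miRNAs with a member's seed, known EZH2-targeting miRNAs, the 3 nearest patterns per guide and the miRNA that set the scale of a library. Replicate numbers did not pair the samples.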

Additional observations from a re-analysis of the deposited data

How the results depend on the processing

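Counts here cover 4 tested members, hsa-miR-26b-3p included. It passed the filter only through MV3, so its calls that involve MV3 were favoured by the filter. They include the 1 call between ES2 and MV3 and 1 of the 4 between A549 and MV3. Across the 6 lines, 4 of 4 differed (542 of 546 miRNAs). With TMM factors, quantile normalization, edgeR and DESeq2 it was 3 (522, 519, 523 and 477 miRNAs). Across the 4 NEXTflex lines, 4 of 4 differed (387 of 453), and 3 with the same alternatives (359, 364, 388 and 356). The NEXTflex count was also 3 with a pseudocount of 0.5 (369 of 453) and 3 of 5 with no filter (427 of 1181). In both, hsa-miR-26b-3p lost its call (limma, adjusted p = 0.0600 and 0.119). Signs turned with scaling in most comparisons with HepG2. Those of hsa-miR-101-3p for A549 and of hsa-miR-26b-3p for BE(2)C, ES2 and MV3 did not. Levels of hsa-miR-26b-3p rest on few reads, and comparisons of the NEXTflex with the Novogene lines carry the preparation. PANC1 has no replicate. The causes of the changes below were not tested.

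Brackets in this paragraph give the calls over all miRNAs, out of 546 unless stated. The count of members that differed moved between A549 and ES2 to 1 with DESeq2 (230). Between A549 and MV3 it moved to 1 with edgeR (223) and 1 with DESeq2 (228). Between ES2 and MV3 it moved from 1 to 0 with TMM factors (148), quantile normalization (152), a pseudocount of 0.5 (168), no filter (186 of 1608), edgeR (125) and DESeq2 (154). On the deposited scale it was 2 (182). Between BE(2)C and HepG2 it moved to 1 with TMM factors (351) and edgeR (340). It moved to 2 with quantile normalization (350), no filter (691 of 1608) and DESeq2 (323). Between ES2 and BE(2)C it moved to 2 with TMM factors (418), quantile normalization (421) and edgeR (413). Between A549 and HepG2 it was 3 with TMM factors (377), quantile normalization (381), edgeR (356) and DESeq2 (359). Between ES2 and HepG2 it was 1 with the first 3 of these (334, 343 and 325). Between MV3 and HepG2 it was 2 with edgeR (328) and DESeq2 (324). A further alternative, chosen after seeing the data, left miR-21-5p and miR-148a-3p out of the library totals. The counts were then 3 across the 6 lines (513) and 3 across the NEXTflex lines (354 of 453). They were 0 for A549 and ES2 (261), 1 for A549 and MV3 (253) and 0 for ES2 and MV3 (166). They were 1 for A549 and BE(2)C (395) and 2 for ES2 and BE(2)C (406). They were 3 for A549 and HepG2 (372) and 2 for ES2 and HepG2 (319). With a library left out, its line keeps only 1 library, so no count is given for these fits.

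Signs of log2 differences turned as follows, given in the order TMM factors, quantile normalization, edgeR and DESeq2. For BE(2)C minus HepG2, hsa-miR-26a-5p was -0.53, -0.86, -0.70 and -0.65, hsa-miR-26b-5p -1.67, -2.35, -1.74 and -1.72, and hsa-miR-101-3p -0.31, -0.73, -0.55 and -0.45. For A549 minus HepG2, hsa-miR-26a-5p was -1.94, -1.98, -2.01 and -1.96, and hsa-miR-26b-5p -1.52, -1.04, -1.58 and -1.54. For ES2 minus HepG2, hsa-miR-26a-5p was -0.61, -0.71, -0.62 and -0.97, hsa-miR-26b-5p -0.70, -0.44, -0.71 and -1.05, and hsa-miR-101-3p -2.05, -1.86, -2.06 and -2.41. For MV3 minus HepG2, hsa-miR-26a-5p was -1.17, -0.97, -1.23 and -1.46, and hsa-miR-101-3p -2.24, -1.99, -2.30 and -2.53. For ES2 minus MV3, hsa-miR-101-3p was 0.19, 0.13, 0.23 and 0.12, and for A549 minus BE(2)C, hsa-miR-26b-5p was 0.15, 1.31, 0.16 and 0.19. With edgeR and DESeq2 only, hsa-miR-26b-3p was -0.22 and -0.14 for A549 minus HepG2, and hsa-miR-26b-5p was -0.026 and -0.26 for MV3 minus HepG2. With quantile normalization, hsa-miR-26b-3p was 0.28 for A549 minus BE(2)C and hsa-miR-26a-5p 0.15 for ES2 minus BE(2)C, the latter 0.074 with edgeR. With miR-21-5p and miR-148a-3p left out of the totals, hsa-miR-26a-5p turned to -0.030 (ES2 minus MV3), -1.09 (BE(2)C minus HepG2), 0.15 (ES2 minus BE(2)C), 0.18 (MV3 minus BE(2)C), -1.56, -0.94 and -0.91 (A549, ES2 and MV3 minus HepG2). hsa-miR-26b-5p turned to -2.24 (BE(2)C minus HepG2), 1.10 (A549 minus BE(2)C), -1.14 and -1.03 (A549 and ES2 minus HepG2). hsa-miR-101-3p turned to 0.037 (A549 minus ES2), -0.88 (BE(2)C minus HepG2), -2.38 and -1.98 (ES2 and MV3 minus HepG2), and hsa-miR-26b-3p to 0.30 (A549 minus BE(2)C).

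With BE(2)C replicates left out in turn, differences from BE(2)C ranged from -1.15 to 0.40 for hsa-miR-26b-5p in A549, from -0.80 to 0.21 for hsa-miR-26a-5p and -0.0045 to 1.54 for hsa-miR-26b-5p in ES2, and from -0.87 to 0.13 for hsa-miR-26a-5p in MV3. Leaving out libraries moved hsa-miR-26b-3p for ES2 minus BE(2)C between -0.43 and 0.71.

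The range of line means was 3.61-fold with TMM factors and 3.90-fold with DESeq2 size factors for hsa-miR-26b-5p, 4.95-fold and 4.05-fold for hsa-miR-26b-3p, and 15.3-fold and 16.6-fold for hsa-miR-101-3p. With a library left out it was 4.56-fold to 7.91-fold for hsa-miR-26a-5p, 10.6-fold to 12.9-fold for hsa-miR-26b-5p, 26.1-fold to 187-fold for hsa-miR-26b-3p and 10.2-fold to 11.1-fold for hsa-miR-101-3p. Ratios spanned 4.98-fold to 7.26-fold (hsa-miR-26a-5p to hsa-miR-26b-5p), 4.69-fold to 14.0-fold (hsa-miR-26b-5p to hsa-miR-26b-3p), 6.07-fold to 12.0-fold (hsa-miR-101-3p to hsa-miR-101-5p), 7.09-fold to 12.1-fold (hsa-miR-26a-5p to hsa-miR-101-3p) and 27.8-fold to 87.9-fold (hsa-miR-26b-5p to hsa-miR-101-3p). These ratios have no test with a library left out. The ratio of hsa-miR-101-3p to hsa-miR-101-5p spanned 3.69-fold within NEXTflex and lost its call there.

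Replicate numbers of the titles did not pair the samples, since correlations of replicate deviations between lines ranged from -0.05 to 0.11 and 1 of 10 exceeded 0.1. With the replicate block, the members called were 4 across the 6 lines (535 of 546 miRNAs) and 3 across the NEXTflex lines (363 of 453). They were 3 between A549 and ES2 (274 of 546) and 1 between ES2 and MV3 (175 of 546).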
